A study of Mus musculus with 2 samples.

Results

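The miR-183 cluster is a group of 3 microRNA genes, Mir183, Mir96 and Mir182, that lie together on chromosome 6. They were taken by name, through their Ensembl identifiers, from the 1973 gene rows of each table, and all 3 had a row in both libraries. Small RNA of under 30 nucleotides had been sequenced from intestines of B6NCrl embryos (mouse, embryonic day 16.5, both sexes pooled, labelled healthy). The series holds 1 group of 2 biological replicates and no treatment, so the genes can be compared with each other and across the replicates. Replicate 2 pooled 41 embryos, and no such number is given for replicate 1. The labels name them as separate tissue samples, and the tests below measure only differences between these libraries.

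MicroRNAs are cut from hairpin transcripts and guide silencing proteins to messenger RNAs, mainly through the seed, bases 2 to 8 of the mature strand. The hairpins of this cluster are known to be made from 1 shared primary transcript. The cluster is best known from sensory organs, where it is abundant in photoreceptors, hair cells and olfactory neurons, and it is also found in some epithelial and endocrine cells. miR-96 is required for the maturation of inner ear hair cells, and miR-182 and miR-183 act with it in the retina.

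The 3 hairpins follow each other on the minus strand (mm10), in the order Mir183, Mir96, Mir182 along the transcript. Mir183 (ENSMUSG00000065619.2) lies at chr6:30169668-30169737, Mir96 (ENSMUSG00000065586.1) at chr6:30169446-30169551 and Mir182 (ENSMUSG00000076361.1) at chr6:30165918-30165992. Between Mir183 and Mir96 there are 116 bases, and between Mir96 and Mir182 there are 3453, so that the cluster spans 3820 bases. RefSeq places all 3 inside the long noncoding gene Mirc35hg (chr6:30158640-30174125, also minus strand), and its table used here does not say whether they are exonic or intronic. GENCODE M21 has no other gene over them. The nearest gene it lists upstream is Rncr4, a long noncoding RNA on the opposite strand (chr6:30172893-30175126).

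The deposited counts are per hairpin, so reads of both arms of a hairpin are added together. The hairpins are shown from RefSeq (GRCm38.p6), 5′ to 3′, because each is the unit that was counted. The mature arms are in capitals, the 5p arm first.

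Mir183: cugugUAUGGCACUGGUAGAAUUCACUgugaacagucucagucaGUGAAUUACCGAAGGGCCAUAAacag

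Mir96: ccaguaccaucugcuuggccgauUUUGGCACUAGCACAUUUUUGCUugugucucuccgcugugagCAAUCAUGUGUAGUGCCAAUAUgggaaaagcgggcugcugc

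Mir182: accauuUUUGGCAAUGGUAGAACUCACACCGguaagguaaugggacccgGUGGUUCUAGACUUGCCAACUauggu

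The hairpins measured 70, 106 and 75 bases in the order Mir183, Mir96, Mir182. Their predicted folding energies were -26.2, -47.9 and -29.9 kcal/mol. The Mir96 hairpin was thus the longest and had the lowest predicted energy.

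The 5p arms, by which the miRNAs are usually known, are shown again with the seed in capitals, since the seed is the part that pairs with targets. The 5p arm of miR-1271 is added as the other miRNA of the RefSeq table with the seed of miR-96.

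miR-183-5p: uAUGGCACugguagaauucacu

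miR-96-5p: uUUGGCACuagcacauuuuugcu

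miR-182-5p: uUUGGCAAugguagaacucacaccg

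miR-1271-5p: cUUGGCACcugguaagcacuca

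Each member had a seed of its own, and the 3 seeds held the same 5 bases at positions 3 to 7, counted from 1 at the 5′ end. From miR-183 to miR-96 the seed differed by A2U, from miR-96 to miR-182 by C8A, and from miR-183 to miR-182 by both. Over the seed, miR-183 and miR-182 had the same base at 5 of 7 positions, and miR-96 matched each of them at 6 of 7. Outside the seed, miR-183 and miR-182 were the most alike, with the same base at 13 of 15 positions (86.7%). There miR-96 had the base of miR-183 at 7 of 15 (46.7%) and of miR-182 at 6 of 16 (37.5%). The shared bases, UGGCA, stood at those positions in 5 of the 1679 mature miRNAs with a name in the RefSeq table (0.298%), the other 2 being miR-1271-5p and miR-7022-5p. Both of those genes, Gm24195 and Mir7022, had 0 counts in each library, which allows up to 0.704 CPM in replicate 1 and 0.528 CPM in replicate 2 (3 counts). The 3p arm of Mir96 shared its seed with miR-3475-5p, whose gene Mir3475 had 9 and 20 counts (2.11 and 3.52 CPM). Of the mature arms of the cluster, none shared a stretch of 18 bases with another gene among 142772 GENCODE transcripts and RefSeq hairpins, on either strand. That search did not cover the rest of the genome.

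The libraries held 4261976 and 5680764 counts on the strand of a miRNA gene in replicates 1 and 2, and levels are these counts scaled to a common total, as CPM. Reads mapped to several loci (26.2% and 25.7% of all reads) lie outside every gene count. The intervals, limits and tests below allow for the counting error of reads alone. PCR copies of 1 molecule count as separate reads, so the error for molecules may be larger. The listed gut miRNAs Mir192, Mir215, Mir194-1 and Mir194-2 were present in both libraries, at 2685 CPM or more.

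The cluster was expressed in fetal intestine, and its members stood in the order Mir182, Mir183, Mir96 in both libraries. By mean level they ranked from 44 to 88 among 1973 gene rows, of which 585 had a count in both libraries. Mir182 stood at 3862 CPM in replicate 1 (16461 counts, exact Clopper-Pearson 95% interval 3804 to 3922) and at 3810 CPM in replicate 2 (21642 counts, 3759 to 3861). Its mean was 3836 ± 37.2 CPM (SD, n = 2), which ranked 44 among all genes. The intervals of the libraries overlap, and in CPM no other member varied less. With the TMM scaling used further below, Mir183 varied least and Mir182 differed between the libraries.

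Mir183 stood at 3015 CPM in replicate 1 (12851 counts, 2963 to 3068) and at 2756 CPM in replicate 2 (15657 counts, 2713 to 2800). The mean was 2886 ± 183 CPM (n = 2) and the rank 57. Here replicate 1 was the higher library, and the intervals did not overlap.

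Mir96 stood at 1139 CPM in replicate 1 (4856 counts, 1108 to 1172) and at 1256 CPM in replicate 2 (7137 counts, 1227 to 1286). The mean was 1198 ± 82.7 CPM (n = 2) and the rank 88. Replicate 2 was the higher library for this gene, again without overlap of the intervals.

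The gaps between members were wider than the spread between the libraries: the lowest value of Mir182 was above the highest of Mir183, and the lowest of Mir183 above the highest of Mir96. No test of the order was made, since 2 libraries cannot give a small exact p. The order is one of read counts: how far cloning or sequencing favoured 1 sequence over another was not tested.

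**Figure D1:**
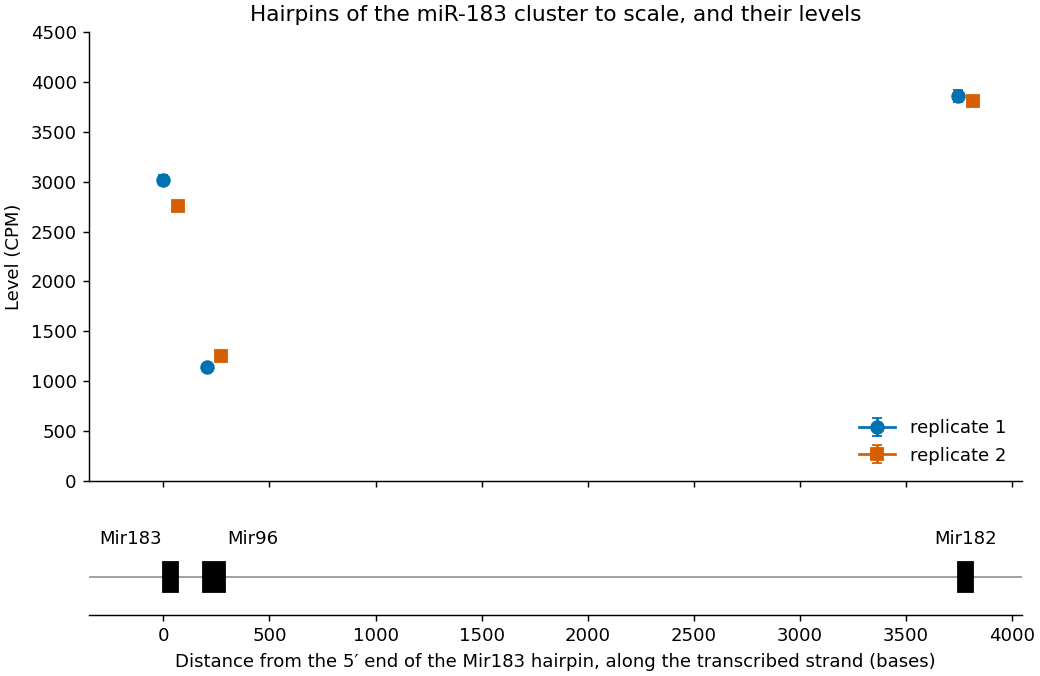
Hairpins of the cluster drawn to scale against distance in bases from the 5′ end of Mir183 (lower panel), with the level in CPM of each gene in replicates 1 and 2 (upper panel; points shifted sideways, bars are exact 95% counting intervals). Mir183 and Mir96 are neighbours and differ in level, and Mir182, the most distant hairpin, is the highest.

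Together the 3 genes held 0.802% of the counts in replicate 1 (exact Clopper-Pearson 95% interval 0.793% to 0.810%) and 0.782% in replicate 2 (0.775% to 0.789%). The mean was 0.792% ± 0.0138 (n = 2). Within the cluster, Mir182 made up 48.2% of the counts in replicate 1 and 48.7% in replicate 2. The share of Mir183 was 37.6% in replicate 1 (37.1% to 38.1%) and 35.2% in replicate 2 (34.8% to 35.7%). That of Mir96 was 14.2% (13.8% to 14.6%) and 16.1% (15.7% to 16.4%). Mir182 thus gave close to the same part of the cluster in both replicates, while the part of Mir96 was larger, and that of Mir183 smaller, in replicate 2.

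**Figure D2:**
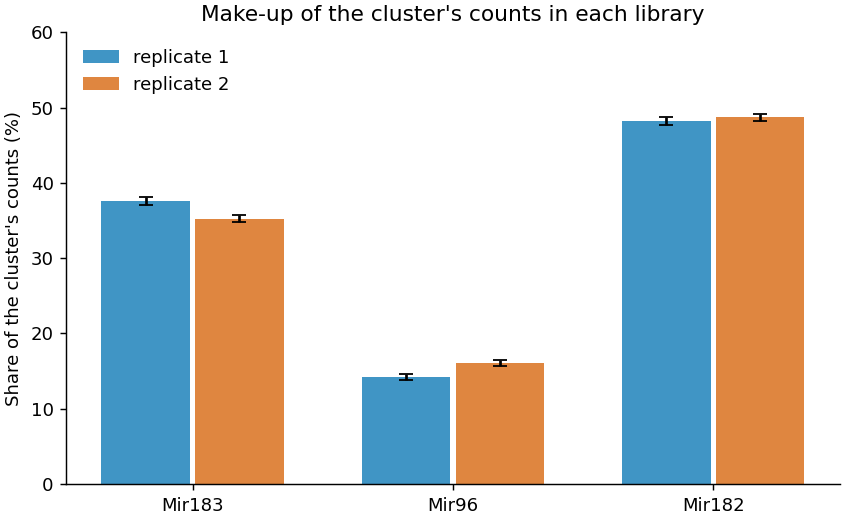
Share of the cluster's counts (%, vertical axis from 0) that each gene held in replicate 1 and replicate 2; bars are the shares and lines the exact 95% counting intervals. Mir182 holds 48.2% and 48.7%, and Mir96 goes from 14.2% to 16.1% between the libraries.

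Ratios between members do not depend on how the libraries are scaled. Mir182 had 1.28 times the counts of Mir183 in replicate 1 (exact 95% interval 1.25 to 1.31) and 1.38 times in replicate 2 (1.35 to 1.41), a mean of 1.33 ± 0.0717 (n = 2). Mir182 had 3.39 times the counts of Mir96 in replicate 1 (3.28 to 3.50) and 3.03 times in replicate 2 (2.95 to 3.12), a mean of 3.21 ± 0.253. For Mir183 over Mir96, the direct neighbours, the ratio was 2.65 (2.56 to 2.74) and 2.19 (2.13 to 2.26), a mean of 2.42 ± 0.320. Each ratio stayed above 1 in both libraries by more than the spread between them, and for each the intervals of the libraries did not overlap.

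Set against other miRNA clusters, these 3 genes lay close together in level. Over 92 other pairs of adjacent genes on 1 strand less than 10 kb apart, with at least 20 counts summed in each gene, the median fold between neighbours was 7.53 (quartiles 2.61 and 32.0). A larger fold than that of Mir182 over Mir183 was seen in 85 of the 92, than that of Mir183 over Mir96 in 72, and than that of Mir182 over Mir96 in 64. Mir182 and Mir183 are not adjacent, since Mir96 lies between them, so the first of these sets a pair of another kind beside neighbours. Among 14 clusters with at least 3 such genes, the highest member of this one was 3.20 times the lowest, and the median of that span was 77.8. The 1 cluster with a narrower span was that of Mir293, Mir292 and Mir294 (1.54), which totalled only 8.30 CPM. These are descriptions with no test. Spans tend to grow with the number of genes, and multimapping reads are missing from all gene counts, and their part in these spans was not tested. Over the 6 clusters of exactly 3 genes the median span was 15.8.

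The ratios between the members differed between the replicates by more than the counting error of reads. Fisher's exact test (two-sided) was run on the counts of 95 pairs, the 92 above and the 3 pairs of members, with Benjamini-Hochberg adjustment over all 95, and 43.2% of the pairs passed. Mir183 over Mir96 was lower in replicate 2 by a log2 change of -0.27 (adjusted p = 1.92e-16 by this exact test). Mir182 over Mir96 was lower in replicate 2 by -0.16 (exact test, adjusted p = 7.56e-07). Mir182 over Mir183 was higher in replicate 2 by 0.11 (exact test, adjusted p = 5.48e-06).

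All 3 pairs therefore passed, but they share genes, so they are not 3 separate results, and their counts are high enough for small changes to pass. In size the changes were usual. The median size over the 92 other pairs was 0.19 (quartiles 0.08 and 0.29). It was smaller than the change of Mir182 over Mir183 in 29 of them, than that of Mir182 over Mir96 in 41 and than that of Mir183 over Mir96 in 66. Some of the other pairs hold few counts and carry more counting error than the members, such as Mir293 over Mir294 (change 1.66).

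**Figure D3:**
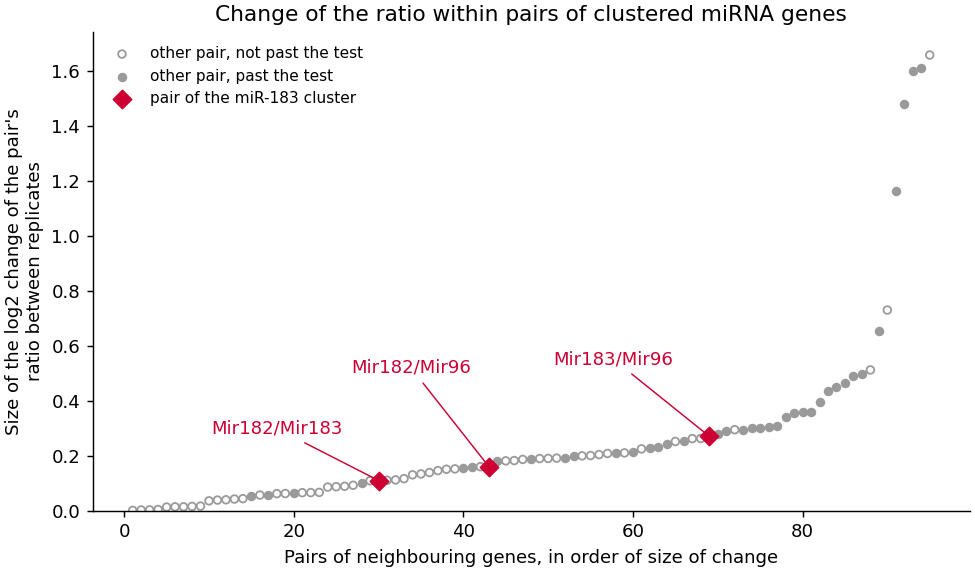
Size of the log2 change, between replicates, of the ratio within each of 95 pairs of clustered miRNA genes (vertical axis), in order of size (horizontal axis); filled points passed Fisher's exact test after adjustment. The 3 pairs of the miR-183 cluster, marked by diamonds, lie at 0.11, 0.16 and 0.27, within the range of most other pairs.

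The level of each member was next compared between the replicates. The log2 ratio of replicate 2 to replicate 1 was taken with TMM scaling, which sets the bulk of genes near 0. An exact two-sided binomial test was made for each of 364 genes with at least 20 counts summed, and adjusted over all of them. Of these genes 24.5% passed as higher in replicate 2 and 27.5% as higher in replicate 1. Of the 3 members, 2 passed as higher in replicate 2 and 1 did not pass.

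Mir96 was higher in replicate 2 by a log2 ratio of 0.27 with a counting error of 0.03 (adjusted p = 3.08e-23, exact binomial test). Mir182 was higher by 0.11 with an error of 0.01 (exact binomial test, adjusted p = 9.39e-13). For Mir183 the ratio was -0.00012 with an error of 0.02 (exact binomial test, adjusted p = 1.00). The median of the members was 0.11, beside -0.02 over all genes tested.

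With total counts in place of TMM, every log2 ratio was lower by 0.13, and 12.6% of genes passed as higher in replicate 2 and 45.1% as higher in replicate 1. Mir96 kept its direction at 0.14 (exact binomial test, adjusted p = 4.49e-07). Mir182 turned to -0.02 and did not pass (adjusted p = 0.251, exact binomial test), and Mir183 passed as higher in replicate 1 at -0.13 (exact binomial test, adjusted p = 2.00e-13). The direction of Mir182 and Mir183 between the replicates thus depended on the scaling, and that of Mir96 did not under any scaling tried. These tests compare 2 libraries and cover counting error only. The median size of the log2 ratio over all 364 genes was 0.21 with TMM, with Mir96 above it and Mir182 and Mir183 below it. Under total counts that median was 0.23, and all 3 members were below it. Both medians include genes with few counts, whose counting error is larger than that of the members. For Gm24245, with 6 and 19 counts, it was 0.65.

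**Figure D4:**
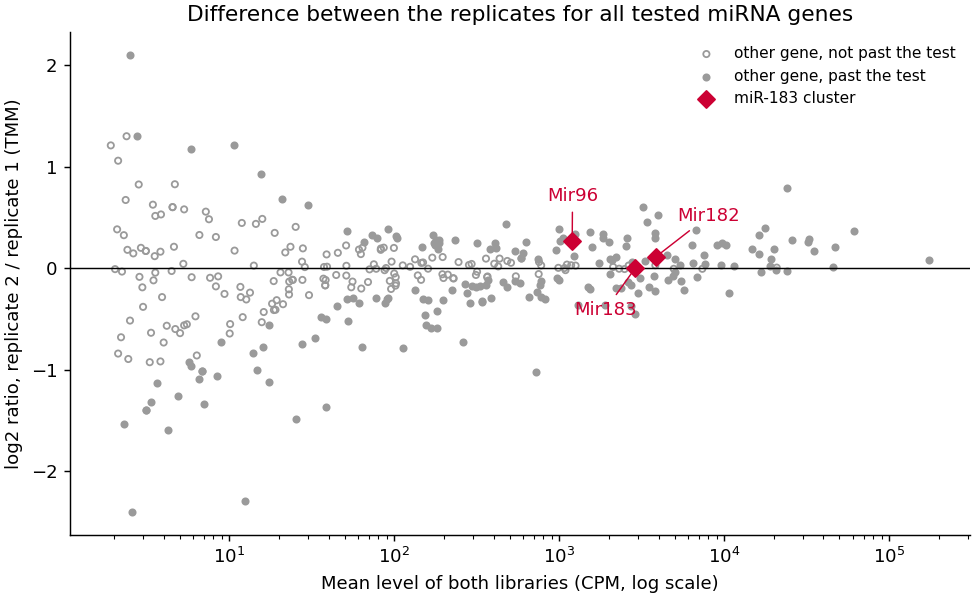
Log2 ratio of replicate 2 to replicate 1 after TMM scaling (vertical axis) against mean level in CPM (horizontal log axis) for 364 miRNA genes; filled points passed the exact binomial test. Mir96 (0.27), Mir182 (0.11) and Mir183 (near 0) lie inside the cloud of genes of like level.

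Levels of marker miRNAs were set beside the cluster. In bulk tissue, fewer cells of a type and less RNA per cell cannot be told apart. The miR-200 family, which keeps epithelial cells epithelial by repressing Zeb1 and Zeb2, held 7.65 times the counts of the cluster (6.06% ± 0.278). Its lowest members were Mir200a (1831 ± 150 CPM) and Mir141 (3383 ± 530 CPM), which lie in the range of the cluster. Mir200b (10296 ± 518 CPM), Mir200c (19151 ± 352 CPM) and Mir429 (25905 ± 1936 CPM) lay above every member.

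The gut epithelial list, of miRNAs that mark the absorptive lining, held 3.86% ± 0.914 or 4.87 times the cluster. In counts, Mir194-1 (3206 ± 736 CPM) and Mir194-2 (3988 ± 765 CPM) were near Mir183 and Mir182. Mir192 (7510 ± 8.79 CPM) and Mir215 (23894 ± 7648 CPM) were higher. For Mir194-1 and Mir194-2, nearness in counts does not show nearness in level, since multimapping reads are missing.

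The endocrine list held 1.75% ± 0.131 or 2.21 times the cluster, nearly all from Mir375, a miRNA of hormone-producing cells (16685 ± 1355 CPM). In counts, the other endocrine genes were below every member of the cluster. Mir7b stood at 631 ± 39.1 CPM, Mir7-1 at 187 ± 13.4 CPM and Mir7-2 at 30.4 ± 5.84 CPM. For Mir7-1 and Mir7-2 a low count does not show a low level, since multimapping reads are missing.

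The neural and sensory list was low beside the cluster. Of 11 genes 10 had a row, 5 had counts in both libraries, and together they held 0.184% ± 0.0152, or 0.233 times the cluster. Mir137, known from neurons, made up most of it at 1542 ± 171 CPM, above Mir96. Mir204, abundant in the retinal pigment epithelium, stood at 23.0 ± 4.35 CPM, and its relative Mir211 had 3 and 0 counts. Mir138-1 stood at 170 ± 2.12 CPM and Mir138-2 at 102 ± 10.9 CPM. Mir9-3 had 28 and 23 counts, and Mir9-2 had 0. The 3 genes of the neuronal miR-124 had 0 to 2 counts per library. miR-124, miR-9 and miR-138 are made from several loci, so multimapping reads are missing from these counts, and a low count does not show a low level.

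Mesenchymal genes held 18.1% ± 0.544 of the counts, 22.9 times the cluster, mostly from Mir143 (173802 ± 4537 CPM), known from smooth muscle. Next came Mir214 (4586 ± 561 CPM), a little above Mir182, and Mir145a (2622 ± 340 CPM), near Mir183. In counts, Mir199a-2 (82.7 ± 2.09 CPM) and Mir199a-1 (6.81 ± 3.65 CPM) were below every member of the cluster. Multimapping reads are missing here too, so a low count does not show a low level. Blood genes held 0.133% ± 0.0130, with the myeloid Mir223 at 777 ± 38.9 CPM, below every member of the cluster. The erythroid Mir451a stood at 383 ± 79.6 CPM and Mir144 at 145 ± 17.3 CPM, and Mir150 of the same list stood at 20.9 ± 5.61 CPM.

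**Figure D5:**
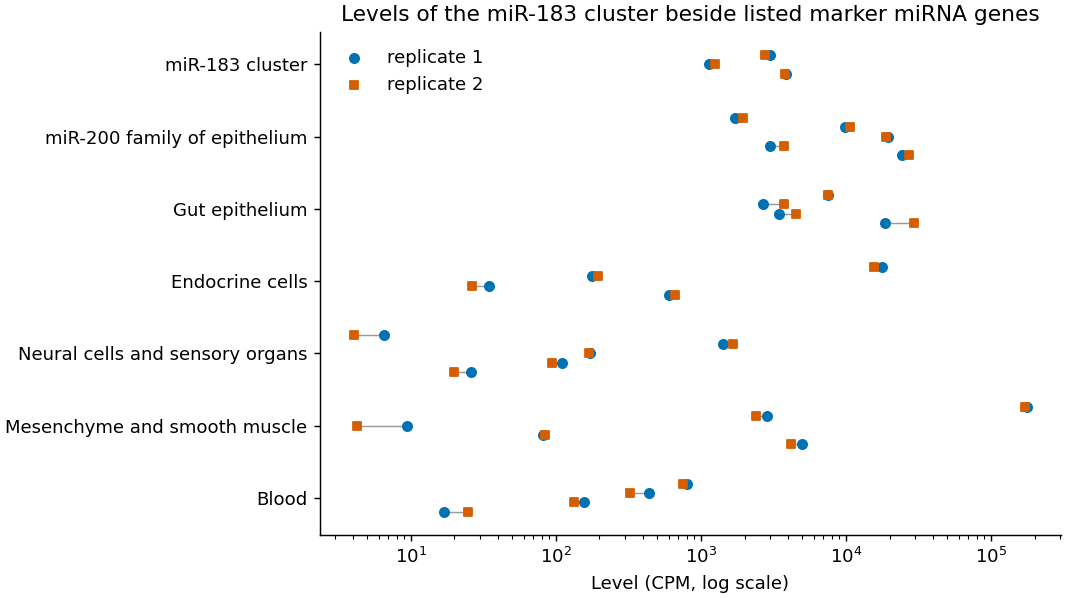
Level in CPM (log axis) of each gene of the miR-183 cluster and of 6 marker lists in replicate 1 and replicate 2, joined by a line; genes with 0 counts in a library are not drawn. The cluster lies at 1139 to 3862 CPM, with Mir96 below every epithelial gene drawn and all 3 members above every endocrine gene but Mir375. Multimapping reads are missing from all counts.

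Between the replicates the epithelial lists were higher in replicate 2. With TMM scaling all 5 miR-200 genes passed in that direction, with a median log2 ratio of 0.28, and under total counts 4 were higher and 1 lower. All 4 gut epithelial genes passed likewise, with a median of 0.56, and under total counts 3 were higher and none lower. Genes of 1 cluster are not separate results. Here these are Mir141 with Mir200c, Mir429 with Mir200b and Mir200a, Mir194-1 with Mir215, and Mir194-2 with Mir192. The same holds for Mir143 with Mir145a, Mir199a-2 with Mir214, and Mir144 with Mir451a in the lists below. Over all genes tested, 24.5% passed as higher in replicate 2 with TMM and 12.6% under total counts.

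The other lists were mixed, beside 24.5% of all genes higher and 27.5% lower in replicate 2 with TMM, and 12.6% and 45.1% under total counts. Of 4 endocrine genes, 2 were higher in replicate 2, 1 was higher in replicate 1 (Mir375, at -0.04) and 1 did not pass, and under total counts 1 was higher and 2 lower. Of 5 neural genes tested, 1 was higher in replicate 2 (Mir137, at 0.36) and 4 did not pass, and under total counts 1 was higher and 1 lower. Of the 5 mesenchymal genes, 1 was higher and 3 lower, and under total counts 0 and 4. Of the 4 blood genes, 1 was higher and 1 lower, and under total counts 1 and 3.

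The value of Mir96 (0.27) lay near the miR-200 median (0.28). Those of Mir182 and Mir183 (0.11 and about 0) lay below it. Nearness to Mir96 was not particular to epithelial markers. Of the endocrine list, Mir7-1 (0.28) and Mir7b (0.26) also lay near Mir96, while Mir375 (-0.04) and Mir7-2 (-0.27) did not. Single epithelial markers ranged from 0.09 (Mir200c) to 0.79 (Mir215), and the gut epithelial median was 0.56. With TMM these markers and Mir96 all passed as higher in replicate 2, as did 24.5% of all genes tested. The part of the epithelial markers in the difference of Mir96 was not tested.

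The genes nearest to each member in level over both libraries were named by their distance in log2(CPM + 1), over only 2 libraries. Nearest to Mir183 were Mir296 (2900 ± 209 CPM), Mirlet7b (2777 ± 99.95 CPM) and Mir431 (3104 ± 344 CPM). Nearest to Mir182 were Mir181c (3825 ± 189 CPM), Mir18 (3828 ± 320 CPM) and Mir541 (3729 ± 376 CPM). Nearest to Mir96 were Mir31 (1239 ± 125 CPM), Mir337 (1226 ± 5.94 CPM) and Mir1983 (1180 ± 58.5 CPM). Since they were picked for being near in these same libraries, their closeness is a description only.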

How the data were processed

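The values deposited by the authors are unnormalized read counts for each miRNA gene (mm10, GENCODE M4, per the file headers in the readme). Which aligner, counter and trimming were used is not stated in the sources used here. The tables hold 3 columns without names. In all 1973 gene rows the columns for each strand added up to the first column, and the column used here held 96.2% and 96.3% of it. The 4 leading rows name no gene and were left out: unmapped (19.5% and 17.2% of reads), multimapping (26.2% and 25.7%), outside genes (3.69% and 2.88%) and ambiguous reads (0).

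Counts were divided by their column total to give CPM. GENCODE M21, also on mm10, gave symbols and positions (1894 of 1973 identifiers matched), and RefSeq (GRCm38.p6) gave the sequences, folded with ViennaRNA 2.7.2. edgeR's quasi-likelihood test needs replicates on each side of a contrast, so exact binomial tests with TMM library sizes (edgeR 4.0.16) were run across all genes, and Fisher's exact tests on pairs, both at an adjusted p of 0.05. Log2 ratios used a prior of 0.5 counts. Both tests were also run on simulated Poisson counts, which hold counting error alone, with total library sizes and no TMM step. That simulation cannot show how the tests behave with PCR copies or other differences between libraries. Alternatives used total counts, DESeq2 1.42.0 size factors, other count minimums, the unstranded column, a total without the most abundant gene, single replicates, a 1 kb distance and a 1.5-fold minimum. Other tools were Python 3.11.15, scipy 1.17.1 and R 4.3.3.

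Named genes were the members, the 3 genes nearest to each in level, genes of 6 marker lists with a count, and genes sharing a seed. Genes with 0 counts and Mir7022 and the narrowest cluster were named after their values were seen. The members and lists were chosen with earlier results of these data known.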

Additional observations from a re-analysis of the deposited data

Results flagged for a closer look

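Reads on the strand opposite to the gene, which the levels leave out, exceeded the limit of 3 counts at members in 2 cases. Mir183 had 5 such counts in replicate 1, beside 12851 on its own strand, and Mir182 had 4 in replicate 2, beside 21642. Mir96 had 0 in both libraries.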

How the results depend on the processing

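No paired analysis was possible because the series holds 1 group. With the unstranded column the share of the cluster was 0.763% and Mir182 stood at 3694 CPM, since the total is larger. Without the most abundant gene in the total, the share was 0.959%, and Mir183, Mir96 and Mir182 stood at 3493, 1450 and 4643 CPM. Single replicates gave shares of 0.782% to 0.802%, and the order Mir182, Mir183, Mir96 held in each. The log2 ratio of Mir183 between replicates was -0.13 under total counts, where it passed, 0.018 with DESeq2 size factors and 0.040 with no count filter, where it did not. That of Mir182 was -0.020 under total counts. That of Mir96 stayed between 0.14 and 0.31 and passed under all 5 alternatives tried. Genes higher in replicates 2 and 1 numbered 89 and 100 with TMM, 46 and 164 under total counts, and 9 and 31 at 1.5-fold or more. Of 41 pairs that passed, 5 reached 1.5-fold, and with a distance under 1 kb 26 of 66 passed, since fewer were tested. With at least 200 counts in each gene, 37 of 79 pairs passed, among them all 3 pairs of members. Mir182 lies over 1 kb from the others, so its pairs do not meet the shorter distance and were kept among those tested as pairs of members; Mir183 over Mir96 meets it and passed. At 4856 counts or more per library, counting error limits the members little, and 2 libraries give only a rough spread.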
